A study of Homo sapiens with 4 samples.

Results

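The core pluripotency factors were followed from human embryonic stem cells into blastoids through 8 genes, POU5F1, SOX2, NANOG, PRDM14, DPPA4, L1TD1, TERF1 and USP44. They were chosen by symbol, all 8 were listed in each of the 4 tables, and the tables together listed 23364 genes. Single-cell RNA was counted with 10x Genomics Chromium 3′ v3.1 libraries in 2 samples of KhES1 cells (hESC 1 and hESC 2) and 2 samples of KhES1-derived blastoids (blastoid 3 and blastoid 4). KhES1 is an established human embryonic stem cell line, and a blastoid is a stem cell aggregate grown to resemble a blastocyst. The hESC samples were kept in mTeSR-1 medium on Matrigel. For the blastoids, KhES1 cells were aggregated for 24 h with Y27632, an inhibitor of the kinase ROCK, and embedded in a PNIPAAm-β-PEG hydrogel. They then received DMEM with fetal bovine serum, and after 3 days iBlastoid medium. All cells come from 1 line, the labels name no genetic change, and they do not say how many blastoids were pooled. The titles of all 4 samples carry day 0, while the table names of blastoid 3 and blastoid 4 carry day 9. Each sample was assigned by its description. Group, medium, hydrogel and day cannot be told apart, and the labels do not say that the samples were separate cultures. The p-values below therefore measure only the spread between these samples, which may be technical.

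POU5F1 (also called OCT4) is a POU-domain and homeodomain factor that pairs with the HMG-box factor SOX2 on neighbouring DNA motifs. Together with the homeodomain protein NANOG they bind their own and each other's regulatory regions and keep primed human stem cells undifferentiated. PRDM14 is a PR-domain zinc finger protein that represses differentiation genes in pluripotent and germline cells. DPPA4 is a SAP-domain nuclear protein, and L1TD1 is an RNA-binding protein derived from the first open reading frame of the LINE-1 transposon. TERF1 (TRF1) is the telomere-binding subunit of shelterin, and USP44 removes ubiquitin from histone H2B and regulates the spindle checkpoint. The last 4 are known as stem-cell-enriched genes outside the triad of POU5F1, SOX2 and NANOG.

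Promoter sequences are shown because POU5F1 and SOX2 read a known composite motif, which lets the members be compared as possible targets of their own network. The 250 bases before the start, taken from the RefSeq table (GRCh38.p14), are shown for SOX2, NANOG, DPPA4 and L1TD1. These are 4 of the 8 members, and the promoters of the rest are not reported here. Both strands were searched for the composite TTTGCATNACAATG, for its POU motif TTTGCAT and for its SOX motif ACAATG, and matches are in capitals. The sequences lie at chr3:181711675-181711924 on the plus strand for SOX2, chr12:7789152-7789401 on the plus strand for NANOG, chr3:109337547-109337796 on the minus strand for DPPA4 and chr1:62194599-62194848 on the plus strand for L1TD1.
SOX2: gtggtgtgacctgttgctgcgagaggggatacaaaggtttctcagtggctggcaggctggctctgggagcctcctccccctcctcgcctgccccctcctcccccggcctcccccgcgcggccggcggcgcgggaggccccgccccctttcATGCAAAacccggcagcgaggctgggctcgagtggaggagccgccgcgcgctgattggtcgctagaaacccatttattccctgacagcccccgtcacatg
NANOG: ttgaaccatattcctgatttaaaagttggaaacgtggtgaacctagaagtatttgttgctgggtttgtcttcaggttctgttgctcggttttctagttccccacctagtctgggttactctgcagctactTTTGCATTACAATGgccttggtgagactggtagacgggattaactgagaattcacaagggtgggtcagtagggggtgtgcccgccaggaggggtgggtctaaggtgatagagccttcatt
DPPA4: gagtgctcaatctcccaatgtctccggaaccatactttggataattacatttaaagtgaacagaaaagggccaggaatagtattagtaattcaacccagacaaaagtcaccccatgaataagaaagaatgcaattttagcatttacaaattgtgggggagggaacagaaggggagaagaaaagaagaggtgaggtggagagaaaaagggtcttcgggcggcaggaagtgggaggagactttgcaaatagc
L1TD1: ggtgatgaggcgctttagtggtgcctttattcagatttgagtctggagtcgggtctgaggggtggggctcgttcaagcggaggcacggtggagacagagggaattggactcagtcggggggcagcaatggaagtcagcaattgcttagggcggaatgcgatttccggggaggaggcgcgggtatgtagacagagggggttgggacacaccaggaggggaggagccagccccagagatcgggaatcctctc
NANOG held the composite as TTTGCATTACAATG from -120 to -107 relative to its start, a match that contains the POU motif (-120 to -114) and the SOX motif (-112 to -107). SOX2 held the POU motif on the opposite strand, from -100 to -94. DPPA4 and L1TD1 had no match in this window. Of 35116 RefSeq promoters of the same 250-base length, 2 (0.0057%) held the composite, 1384 (3.94%) the POU motif and 3261 (9.29%) the SOX motif. A match describes letters only, and binding was not measured here.

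Cells were kept with at least 500 genes, which left 9607 cells after 73 doublet calls (none of them in hESC 2). The 4 samples held 1916 to 3175 kept cells, 13255214 to 17679447 UMIs in all and medians of 4996 to 8798 UMIs per cell, blastoid 4 being the deepest. A UMI is a molecular tag by which amplified copies of an mRNA are collapsed to a single count. The samples of a group shared cell barcodes: 1317 between the hESC samples, of which 26 were kept cells of hESC 1 and 1310 kept cells of hESC 2, and 1035 between the blastoid samples, of which 0 were kept cells of blastoid 3 and 1010 kept cells of blastoid 4. Blastoid 3 thus keeps no shared cell. Leaving out the shared cells cut hESC 2 from 15913590 to 5033196 UMIs and blastoid 4 from 17679447 to 5648443 UMIs. How independent the samples of a group are was not tested. Fold changes are given with and without the shared cells where these move them. The labelled cell type fitted the hESC samples, where 12 of 12 pluripotent markers (members left out) were above 1 CPM and all cells fell in pluripotent-like clusters. Hypoblast, the primitive endoderm of the blastocyst, formed no cluster of its own in the blastoid samples. The hypoblast/endoderm markers summed to 221 and 145 CPM there (6 and 5 of 11 above 1 CPM, FOXA2 and PRSS2 at 0 in both), against 5.58 and 6.54 CPM in the hESC samples (2 and 3 of 11, with FOXA2, PRSS2 and 5 more at 0). In the cell classes named below, these markers summed to 279 and 230 CPM in mesoderm/mesenchyme-like cells of blastoid 3 and blastoid 4. They summed to 36.3 and 32.6 CPM in trophectoderm/amnion-like and 42.5 and 6.52 CPM in pluripotent-like cells. Reads of near-identical copies can be split by the counting. POU5F1B had 41, 91, 12 and 11 UMIs in hESC 1, hESC 2, blastoid 3 and blastoid 4, NANOGP8 had 5 in each hESC sample and was not listed in the blastoid tables, and the overlapping SOX2-OT had 45, 55, 14 and 10.

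Summed over all kept cells, all 8 members were lower in each blastoid sample than in hESC 1 and hESC 2, and none was at 0. The share of all genes that lie apart in this way was not counted. In the edgeR test given below, 22.8% of the 16332 genes tested were called lower. Levels are UMI counts scaled to a library total of 1e6 (CPM), ordered as hESC 1, hESC 2, blastoid 3 and blastoid 4. POU5F1 was at 1153, 1141, 60.04 and 89.1 CPM. SOX2 was at 312, 289, 13.8 and 19.0 CPM. NANOG was at 85.3, 92.3, 6.75 and 11.2 CPM. In these 3 factors of the triad the groups lay far apart and blastoid 4 was the higher blastoid sample. PRDM14, the least sampled member, was at 8.45, 10.7, 0.993 and 1.64 CPM, from 112, 171, 15 and 29 UMIs. It showed the same order of samples as the triad.

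**Figure D1:**
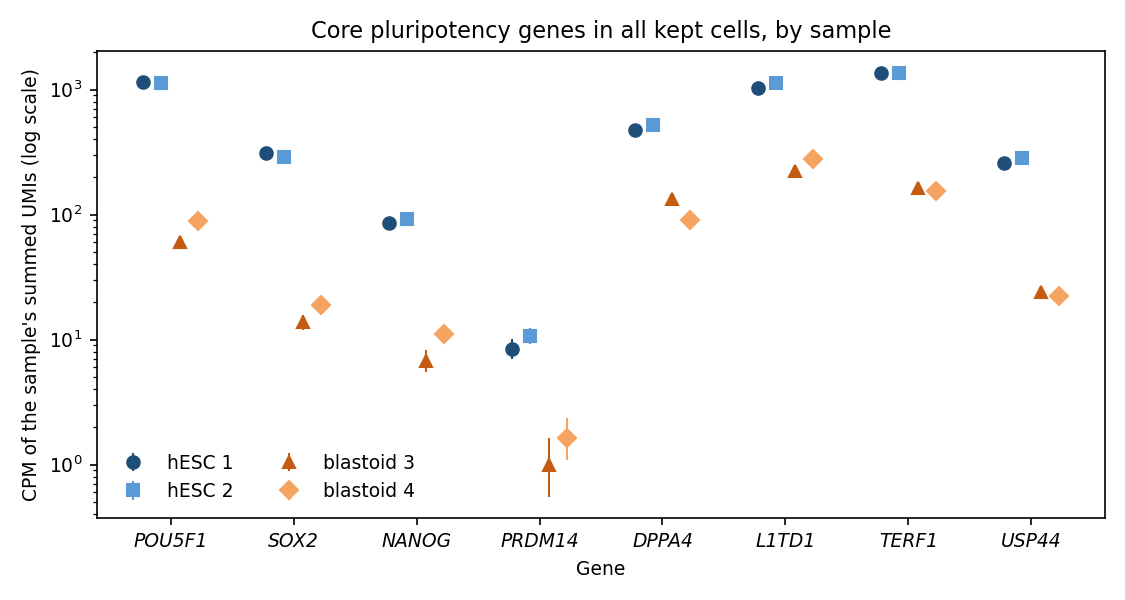
Level of each core pluripotency gene in CPM (log axis) in all kept cells of the 4 samples, with bars for the 95% counting interval of the UMIs. For each of the 8 genes both blastoid samples lie below both hESC samples, from 1153 and 1141 down to 60.04 and 89.1 CPM for POU5F1. The share of all genes that do so was not counted.

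DPPA4 was at 478, 518, 134 and 91.3 CPM, and L1TD1 at 1029, 1132, 223 and 278 CPM. These were the members with the most left in the blastoids. TERF1 was at 1365, 1367, 162 and 154 CPM. USP44 was at 261, 282, 24.0 and 22.2 CPM. For TERF1 and USP44 the blastoid samples lay close together, while for DPPA4 blastoid 3 was the higher sample and for L1TD1 blastoid 4.

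As a share of each gene's own mean hESC level, the blastoid level was 5.46% ± 1.22 for SOX2, 6.50% ± 1.79 for POU5F1 and 8.52% ± 0.469 for USP44 (SD, n = 2). It was 10.1% ± 3.54 for NANOG, 11.6% ± 0.417 for TERF1 and 13.7% ± 4.77 for PRDM14 (SD, n = 2). DPPA4 kept 22.6% ± 6.03 and L1TD1 23.2% ± 3.58 (SD, n = 2). Neighbours in this order differed by less than their spread, except POU5F1 against USP44 and PRDM14 against DPPA4, whose means lay apart by more than either SD. Extinction in the sense of no transcripts was therefore not seen for any member in the samples as a whole. Fewer cells that express a gene and less RNA per cell cannot be told apart in such sums, and the cell classes below address that.

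The edgeR quasi-likelihood test on the summed UMIs called 8 of 8 members lower in the blastoids. Over all 16332 genes tested, 49.9% were called, 22.8% lower and 27.1% higher, and the median log2 fold change was 0.05. The log2 fold change was -4.31 ± 0.21 for SOX2 and -4.06 ± 0.24 for POU5F1 (SE, n = 2 per group, edgeR adjusted p 1.39e-05 and 2.74e-05). It was -3.42 ± 0.25 for NANOG and -2.96 ± 0.31 for PRDM14 (SE, n = 2 per group, edgeR adjusted p 6.59e-05 and 3.07e-04). The triad and PRDM14 thus lay between -4.31 and -2.96 on the log2 scale. TERF1 fell by 3.24 and USP44 by 3.68 on the log2 scale (edgeR adjusted p 1.04e-05 and 6.26e-06). DPPA4 fell by 2.28 and L1TD1 by 2.23 (edgeR adjusted p 7.94e-05 and 9.51e-05). Without the shared barcodes the fall was larger for the triad and PRDM14, at -4.85 for POU5F1, -5.01 for SOX2, -4.29 for NANOG and -3.72 for PRDM14, and all 8 stayed called.

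Detection per cell was compared after each cell was thinned to 2000 UMIs, which left 1803, 2202, 2171 and 1874 cells in the order above and dropped 435, 973, 107 and 42 shallower ones. POU5F1 was detected in 90.5% and 89.0% of hESC cells and in 4.97% and 7.42% of blastoid cells. SOX2 was detected in 44.6% and 44.0% against 1.70% and 2.19%, and NANOG in 15.3% and 16.5% against 0.737% and 1.44%. For each of the 3 the difference between groups exceeded the spread within them, with a mean difference of -83.5 percentage points for POU5F1 (89.7% ± 1.03 against 6.20% ± 1.73, SD, n = 2). Exact two-sided permutation of 2 samples against 2 cannot go below p = 0.33, so these differences carry no test.

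L1TD1 was detected in 82.6% and 86.6% of hESC cells against 23.6% and 30.04% of blastoid cells, and TERF1 in 91.0% and 92.1% against 24.6% and 24.0%. DPPA4 was detected in 61.4% and 61.7% against 20.9% and 14.7%. A minority of the blastoid cells thus still gave a UMI of these genes at this depth, with blastoid 3 higher for DPPA4. USP44 was detected in 39.8% and 43.3% against 4.38% and 3.42%, and PRDM14 in 1.50% and 2.18% against 0.0921% and 0.213%. Without thinning, POU5F1 was detected in 94.1%, 90.6%, 11.4% and 16.0% of the cells of the 4 samples and TERF1 in 92.4%, 90.6%, 53.9% and 60.02%. SOX2 was then detected in 71.2%, 61.1%, 3.73% and 6.26%, and NANOG in 34.3%, 32.6%, 2.28% and 4.44%.

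To place the remaining transcripts, cells were clustered without the 8 members and clusters were named from marker lists that hold none of them. In blastoid 3, 111 cells (4.87%) were pluripotent-like, 411 (18.0%) trophectoderm/amnion-like and 1751 (76.9%) mesoderm/mesenchyme-like. In blastoid 4 these numbers were 115 (6.002%), 632 (33.0%) and 1157 (60.4%), and 5 and 12 endothelium-like cells completed the samples. These names were rebuilt from markers, so a difference from the study's own names may come from the naming. Of the pluripotent-like blastoid cells, 87 and 105 formed a cluster of their own led by NODAL, TMPRSS11E and HPGD. That cluster detected 11 of 12 pluripotent and 11 of 14 trophectoderm/amnion markers in at least 10% of its cells, and the larger share of the list, a rule chosen after this tie was seen, gave its name. The other 34 lay in shallow hESC clusters. No class was compared with another by a test, because the classes come from clustering the same cells.

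Summed over all cells outside the pluripotent-like class, the triad was at 1.75% of its hESC level or less. L1TD1, TERF1 and USP44 differed between the sums of the trophectoderm/amnion-like and mesoderm/mesenchyme-like classes. POU5F1 was at 18.7 and 20.1 CPM in trophectoderm/amnion-like cells of blastoid 3 and blastoid 4 and at 20.5 and 16.5 CPM in mesoderm/mesenchyme-like cells, which is 1.44% to 1.79% of the hESC level. SOX2 was at 5.04 and 3.63 CPM in the first class and 2.44 and 2.77 CPM in the second, and NANOG at 1.80 and 1.81 against 0.959 and 0.692 CPM. PRDM14 had 2 and 3 UMIs over all cells outside the pluripotent-like class, or 0.14 and 0.184 CPM (95% counting intervals 0.017 to 0.506 and 0.038 to 0.538). After thinning, 2.68% and 3.08% of the mesoderm/mesenchyme-like cells (46 and 35 cells) had a POU5F1 UMI, against 2.49% and 3.73% of the trophectoderm/amnion-like cells (exact 95% intervals 1.15% to 4.68% and 2.38% to 5.55%). Of the 46 and 35, 26 and 13 lay in a single cluster described below. In the other 3 clusters of the class the share was 1.02% to 2.52%. Median depths before thinning were 6184 and 8401 UMIs in the mesoderm/mesenchyme-like and 6221 and 9054.5 in the trophectoderm/amnion-like cells. The part of free RNA in these low shares was not tested, and they are not read as expression.

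L1TD1, known from stem cells and germ cells, was at 575 and 500 CPM in trophectoderm/amnion-like cells (counting intervals 547 to 604 and 482 to 518). In mesoderm/mesenchyme-like cells it was at 94.1 and 64.1 CPM (88.5 to 99.8 and 59.2 to 69.2). The first class thus kept 53.2% and 46.2% of the hESC level of L1TD1 and the second 8.70% and 5.93%. TERF1 had the opposite order, at 70.5 and 58.9 CPM in trophectoderm/amnion-like cells (61.0 to 81.1 and 52.9 to 65.3) and 168 and 183 CPM in mesoderm/mesenchyme-like cells (161 to 176 and 175 to 192). The intervals of the 2 classes did not overlap in either blastoid sample for L1TD1 or TERF1, and they cover counting error only. How many of all genes separate in this way was not counted, so the separation is not read as particular to these members. After thinning, L1TD1 was detected in 61.2% and 58.0% of trophectoderm/amnion-like cells against 13.1% and 10.9% of mesoderm/mesenchyme-like cells. TERF1 was detected in 11.1% and 11.04% against 26.4% and 29.2%.

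**Figure D2:**
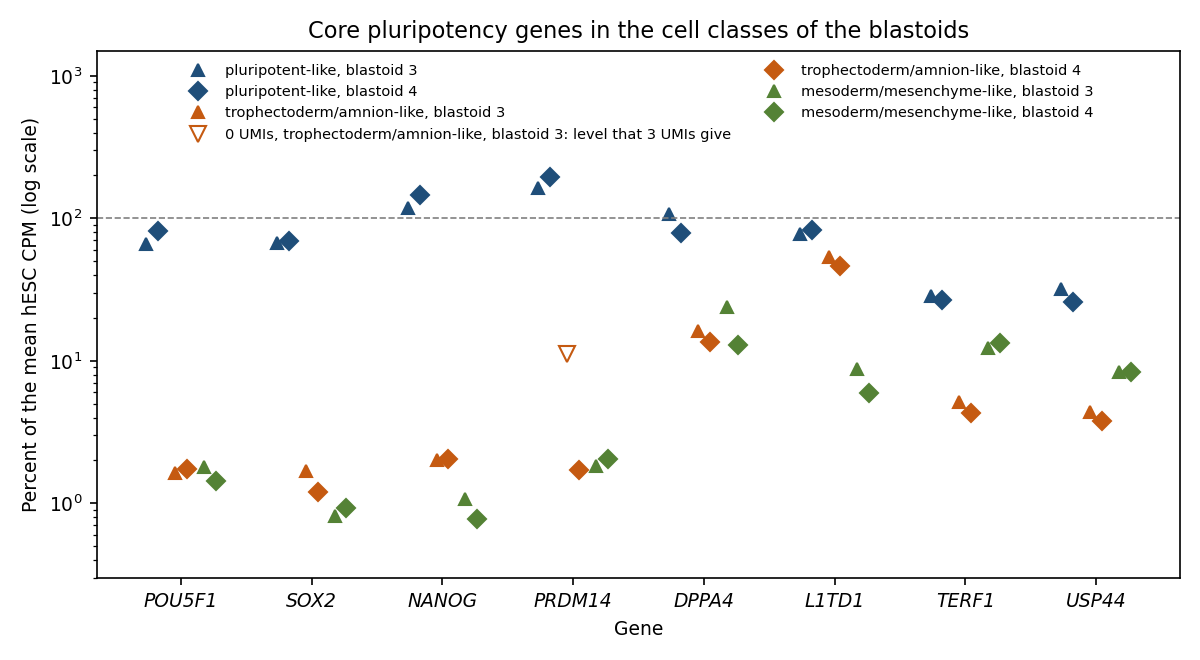
Level of each core pluripotency gene in the 3 larger classes of each blastoid sample, as a percent of that gene's mean hESC CPM (log axis, dashed line at 100), with an open triangle where a class had 0 UMIs at the level that 3 UMIs would give. L1TD1 stands at 53.2 and 46.2 in trophectoderm/amnion-like cells against 8.70 and 5.93 in mesoderm/mesenchyme-like cells, and the triad stays below 3 in both classes.

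USP44 followed TERF1, at 11.9 and 10.2 CPM in trophectoderm/amnion-like and 22.5 and 22.6 CPM in mesoderm/mesenchyme-like cells. DPPA4 was at 80.3 and 67.1 CPM in the first class and 118 and 64.4 CPM in the second, so its order differed between the blastoid samples. PRDM14 had 0 and 1 UMIs in trophectoderm/amnion-like cells, where 3 UMIs would correspond to 1.08 CPM in blastoid 3.

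Within the mesoderm/mesenchyme-like class, POU5F1 was concentrated in the cluster led by MESP1 and MSGN1, genes of nascent mesoderm, which held 227 cells of blastoid 3 and 41 of blastoid 4. POU5F1 was at 96.1 and 170 CPM there (counting intervals 82.0 to 112 and 134 to 213), which is 8.38% and 14.8% of its hESC level. In the other 3 mesoderm/mesenchyme-like clusters, led by TECRL and NPNT, by PITX1 and SAMD11 and by CXCL14 and SST, it was between 3.22 and 10.9 CPM. The MESP1 cluster detected 9 of 12 pluripotent markers in at least 10% of its cells, against 6 in each of those 3. It detected 14 of 16 mesoderm/mesenchyme markers against 13 in each of them. After thinning, 11.5% (exact 95% interval 7.65% to 16.4%) and 31.7% (18.1% to 48.1%) of the cells of the MESP1 cluster had a POU5F1 UMI. These intervals lay above the shares of 1.02% to 2.52% in the other 3 clusters. SOX2 was at 4.66 and 4.48 CPM in the MESP1 cluster, or 1.55% and 1.49% of its hESC level, from 8 and 2 UMIs (counting intervals 2.01 to 9.18 and 0.543 to 16.2), against 0.396 to 3.87 CPM in the other 3 clusters. Of the cells with a POU5F1 UMI, 1 of 26 and 0 of 13 also had a SOX2 UMI. L1TD1 was at 291 and 213 CPM in this cluster, 27.0% and 19.7% of its hESC level.

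**Figure D3:**
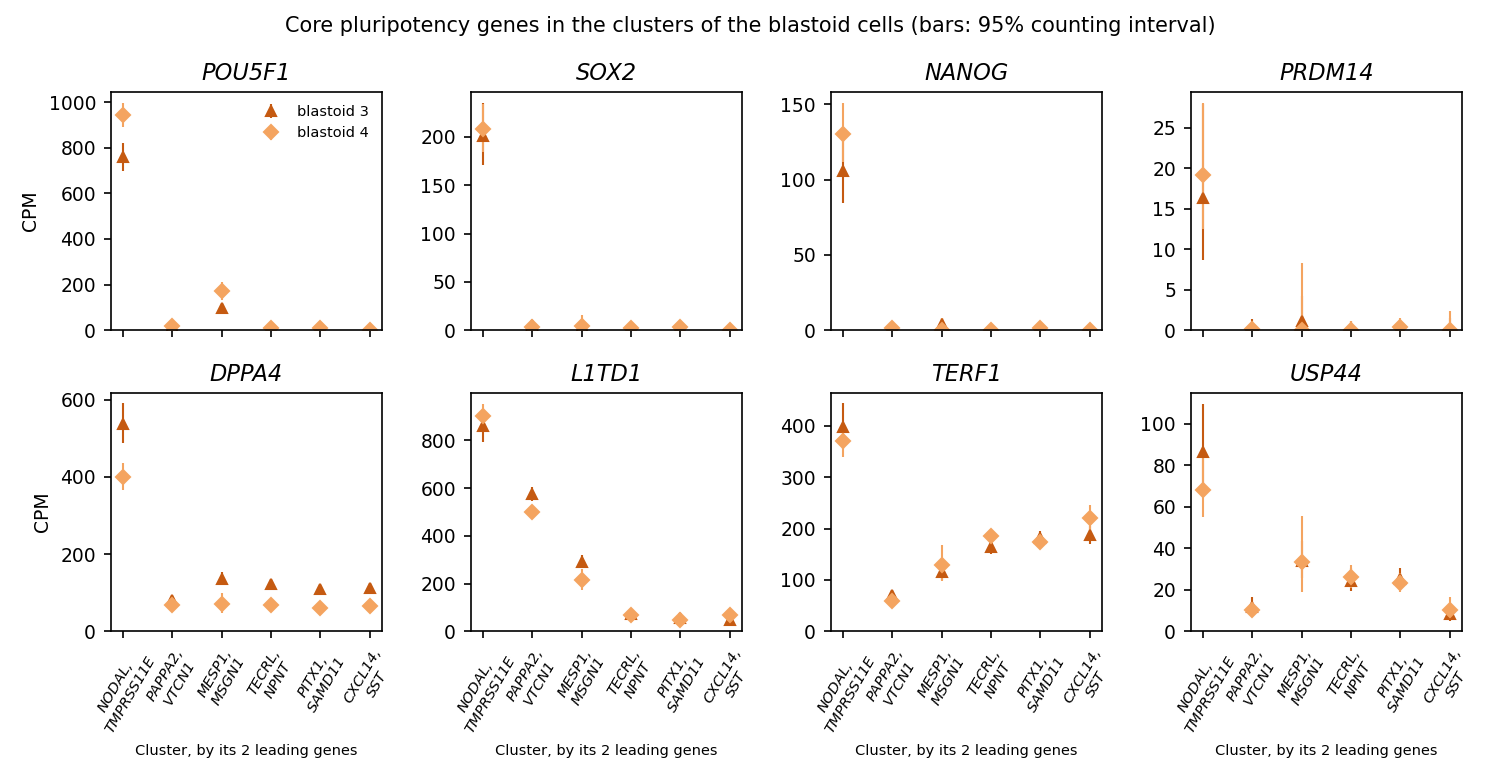
CPM of each core pluripotency gene in the blastoid clusters of at least 50 cells that hold no cell of hESC 1, named on the horizontal axis by their 2 leading genes, with bars for the 95% counting interval. The NODAL cluster is highest for all 8 genes, and among the mesoderm/mesenchyme-like clusters the MESP1 cluster stands out for POU5F1 at 96.1 and 170 CPM.

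The pluripotent-like blastoid cells, few as they were, held most of the transcripts of the triad. Their share of the sample's UMIs in blastoid 3 and blastoid 4 was 68.4% and 81.6% for POU5F1, 79.9% and 85.1% for SOX2, 84.3% and 90.9% for NANOG and 86.7% and 89.7% for PRDM14. The share was 13.1% and 18.6% for TERF1, 19.6% and 24.7% for USP44, 20.6% and 25.1% for L1TD1 and 21.7% and 33.9% for DPPA4. The class held 823835 of the 15106405 UMIs of blastoid 3 and 1381342 of the 17679447 UMIs of blastoid 4. Each of the 8 members thus had more of its UMIs there than an even spread would give. For 4 members the remaining UMIs sat mainly in this class. For the other 4 they lay mainly outside it, though the mean level was higher inside. It was 379 against 143 CPM for TERF1, 78.2 against 19.3 for USP44, 868 against 207 for L1TD1 and 464 against 88.1 for DPPA4.

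Whether the members were lower within cells that were still pluripotent-like was tested on UMIs summed over that class. TERF1 and USP44 were lower in the pluripotent-like cells of the blastoids, at 25.9% to 31.8% of their hESC levels, while NANOG and PRDM14 were not called and had levels above those of the hESC samples. TERF1 was at 391 and 367 CPM (28.6% and 26.9% of the mean hESC level) and USP44 at 86.2 and 70.2 CPM (31.8% and 25.9%). POU5F1 was at 753 and 930 CPM (65.6% and 81.1%) and SOX2 at 203 and 207 CPM (67.5% and 68.9%). These 4 members lay below both hESC samples in both blastoid samples, as did L1TD1. The share of all genes that do so in this class was not counted. NANOG was at 104 and 130 CPM (118% and 147%), and PRDM14 at 15.8 and 18.8 CPM (164% and 196%) from only 13 and 26 UMIs. DPPA4 was at 533 and 396 CPM (107% and 79.5%), on either side of the hESC samples, and L1TD1 at 842 and 893 CPM (78.0% and 82.7%).

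With edgeR, 4 of 8 members were called lower in the pluripotent-like class and 0 higher, beside 25.1% called (11.7% lower and 13.4% higher) among all 14047 genes tested, whose median log2 fold change was -0.01. TERF1 fell by 1.94 and USP44 by 1.90 on the log2 scale (SE 0.17 for each, edgeR adjusted p 5.23e-08 and 8.98e-08). Both calls held in all 15 fits, with log2 fold changes from -2.51 to -1.64 and from -2.36 to -1.60. SOX2 was called at -0.64 ± 0.16 and POU5F1 at -0.52 ± 0.17 (SE, n = 2 per group, edgeR adjusted p 0.00557 and 0.0321). Both of these calls were lost at a clustering resolution of 1.0 (-0.31 and -0.29, edgeR adjusted p 0.162 and 0.225) and without hESC 1 or hESC 2, and that of POU5F1 also without blastoid 3. At resolution 1.0, where the class held 79 and 98 blastoid cells, NANOG (0.69) and PRDM14 (1.10) were called higher instead (edgeR adjusted p 0.00251 and 0.0120), which made 2 of 8 higher and 2 lower. In that setting the trophectoderm/amnion-like class held 443 and 649 blastoid cells instead of 411 and 632. The mesoderm/mesenchyme-like class kept its size. In the fit as first given, NANOG had 0.34 ± 0.16, PRDM14 0.80 ± 0.29, DPPA4 -0.20 ± 0.16 and L1TD1 -0.40 ± 0.16 (SE, n = 2 per group, edgeR adjusted p 0.128, 0.0507, 0.390 and 0.0792). With 15 principal components, which drew 276 and 152 blastoid cells into the class, the values were -1.26 for POU5F1, -1.53 for SOX2, -0.50 for NANOG, -0.08 for PRDM14, -0.89 for DPPA4 and -1.04 for L1TD1. In that fit 6 of 8 members were called lower, DPPA4 and L1TD1 included (edgeR adjusted p 0.00599 and 0.0114). The mesoderm/mesenchyme-like class then held 1567 and 1119 blastoid cells instead of 1751 and 1157. The part of the cells that changed class in these fold changes was not tested. Without the shared barcodes, which left 111 and 21 blastoid cells, NANOG was at 0.0022 and PRDM14 at 0.56. L1TD1 was called at -0.59 (edgeR adjusted p 7.31e-04). The fall was larger for POU5F1 at -0.76, SOX2 at -0.79 and TERF1 at -2.15 (edgeR adjusted p 8.48e-06, 2.28e-05 and 1.63e-36). USP44 was at -1.86 and DPPA4 at -0.18. These last 5 members were called or not called as before.

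**Figure D4:**
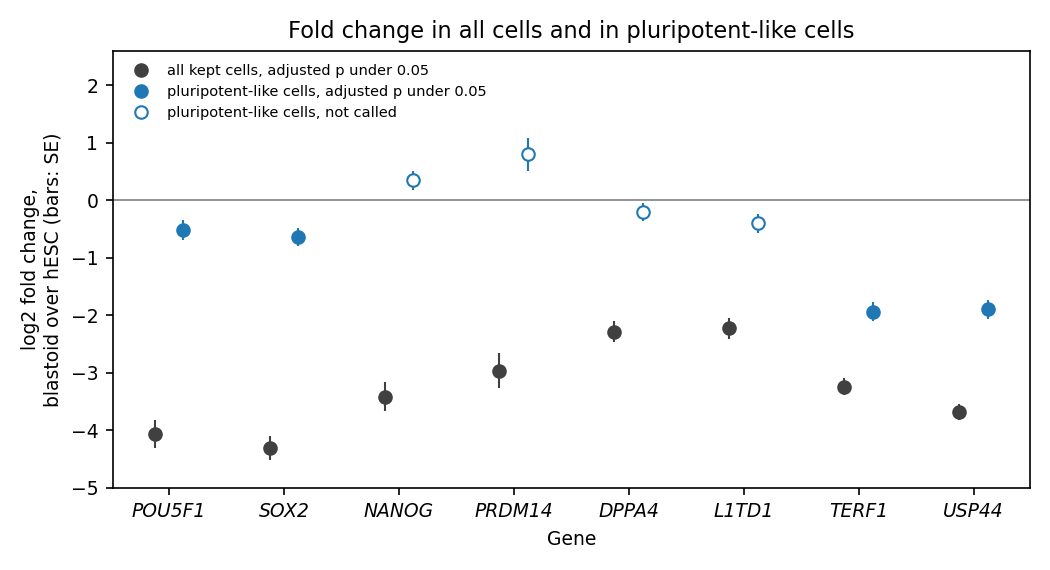
log2 fold change of each core pluripotency gene, blastoid over hESC, with its SE, in all kept cells and in pluripotent-like cells (filled points have an edgeR adjusted p under 0.05). In all cells the 8 values run from -4.31 to -2.23, and in pluripotent-like cells TERF1 and USP44 stay lowest at -1.94 and -1.90.

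These cells differed from the hESC cells in markers of other classes. Their trophectoderm/amnion markers summed to 516 and 320 CPM (13 of 14 above 1 CPM, TP63 at 0), against 32.7 and 29.7 CPM in hESC 1 and hESC 2 (4 and 5 of 14, with GATA2, GATA3, TFAP2A, CDX2, KRT23, ISL1, VTCN1 and TP63 at 0, which includes genes not listed in a table). Their pluripotent markers summed to 1947 and 1900 CPM, against 2429 and 2481 CPM, with FOXD3 at 0 in blastoid 3. Their mesoderm/mesenchyme markers summed to 478 and 369 CPM against 345 and 381 CPM, with 16 and 15 of 16 above 1 CPM against 5 and 6. Their neuroectoderm markers summed to 160 and 209 CPM against 64.7 and 73.9 CPM (2 of 9 above 1 CPM in each of the 4 samples), and their hypoblast/endoderm markers to 42.5 and 6.52 CPM against 5.58 and 6.54 CPM. Their endothelium markers summed to 140 and 131 CPM against 107 and 102 CPM. Their median depth was 7464 and 12372 UMIs. The sum of the class in blastoid 3 held 823835 UMIs, where 1 UMI exceeds 1 CPM, so the marker counts depend on depth. The part of these marker differences in the results for the members was not tested. In the class, thinned detection of POU5F1 was 60.9% and 74.1%, of SOX2 29.9% and 23.1%, of NANOG 11.5% and 23.1% and of L1TD1 74.7% and 75.0%. Detection of TERF1 was 44.8% and 43.5% and of USP44 8.05% and 9.26%.

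Most hESC cells had several members at once, and few blastoid cells did. At 2000 UMIs, 95.1% of hESC 1 and 95.8% of hESC 2 cells had at least 3 of the 8 members (1715 and 2109 cells), against 3.78% of blastoid 3 and 5.18% of blastoid 4 cells (82 and 97 cells). No hESC cell lacked all 8, while 42.0% and 41.7% of blastoid cells did, and the median was 4 members per cell in both hESC samples and 1 in both blastoid samples. Of the 82 cells of blastoid 3, 47 were pluripotent-like, 7 trophectoderm/amnion-like and 28 mesoderm/mesenchyme-like. Of the 97 of blastoid 4, these numbers were 69, 15 and 13. Within the pluripotent-like class 54.0% (exact 95% interval 43.0% to 64.8%) and 63.9% (54.1% to 72.9%) had at least 3 members, with a median of 3. In the trophectoderm/amnion-like class 1.94% and 2.44% did, and in the mesoderm/mesenchyme-like class 1.63% and 1.14%.

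**Figure D5:**
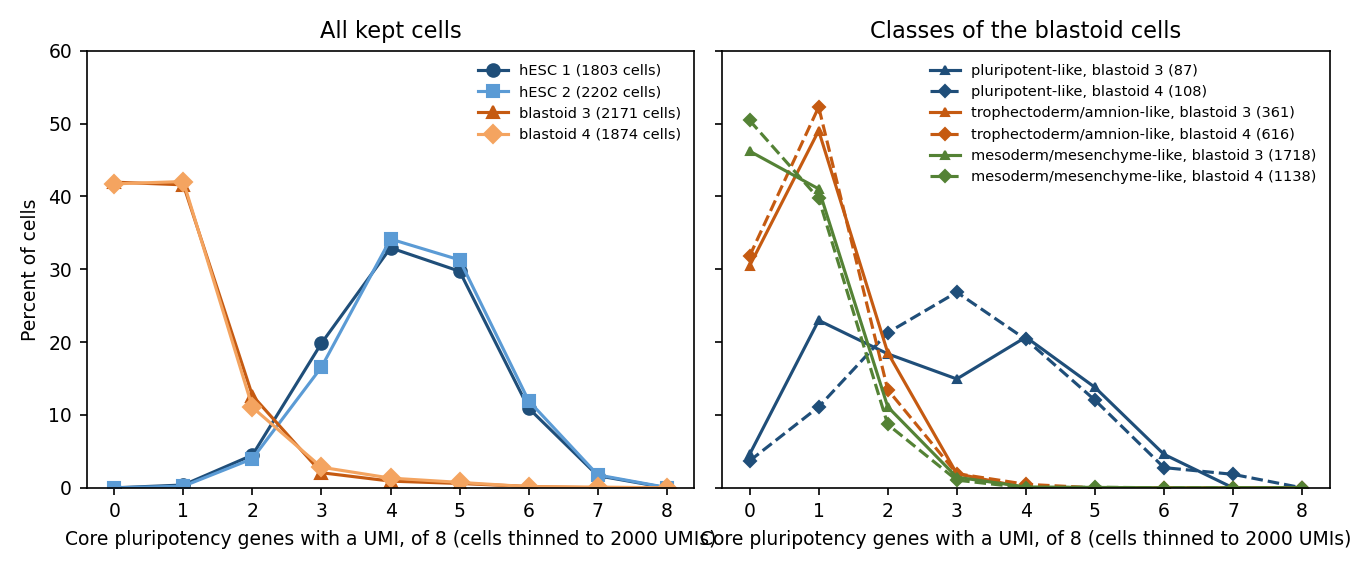
Percent of cells by the number of the 8 core pluripotency genes with a UMI, after thinning to 2000 UMIs, for the 4 samples (left) and for the classes of the blastoid cells (right). The hESC samples centre on 4 genes, the blastoid samples have 42.0 and 41.7 percent of cells at 0, and the pluripotent-like blastoid cells centre on 3.

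POU5F1, SOX2 and NANOG were seen in the same cell in 6.49% and 5.45% of hESC cells at this depth, and in 2 cells (0.0921%) of blastoid 3 and 8 (0.427%) of blastoid 4. All 2 and 8 of these blastoid cells were pluripotent-like. None of the 3 was seen in 4.22% and 5.22% of hESC cells and in 94.1% and 91.3% of blastoid cells. In the hESC samples SOX2 was detected in 44.6% and 44.3% of cells with a POU5F1 UMI and in 44.8% and 41.7% of cells without. In the blastoid samples it was detected in 20.4% and 16.5% of cells with POU5F1 and in 0.727% and 1.04% of cells without. Within the pluripotent-like class the gap was smaller, 39.6% against 14.7% in blastoid 3 and 27.5% against 10.7% in blastoid 4.

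Over pairs of members, the cells with both were counted against the number expected from the product of their shares, where at least 5 were expected. The ratio of observed to expected cells had a median of 1.00 in hESC 1 (27 pairs, 0.937 to 1.16) and 1.00 in hESC 2 (28 pairs, 0.839 to 1.39). In all kept cells of blastoid 3 and blastoid 4 the median was 1.48 over 12 pairs and 1.70 over 14 pairs. Among these pairs the highest ratios were 2.98 for SOX2 with L1TD1 in blastoid 3 and 3.31 for SOX2 with DPPA4 in blastoid 4, and L1TD1 with TERF1 was lowest at 0.858 and 0.882. The pairs within the triad were too rare for this limit and lay higher. POU5F1 with SOX2 was seen in 22 and 23 cells where 1.84 and 3.04 were expected, POU5F1 with NANOG in 9 and 20 cells where 0.796 and 2.003 were expected, and SOX2 with NANOG in 3 and 9 cells where 0.273 and 0.591 were expected. Within the pluripotent-like class the medians were 1.22 and 1.10 (14 and 18 pairs), and in the other blastoid cells 0.908 and 0.9499 (9 pairs each). These ratios describe cells of the same library and carry no test.

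Cell by cell, the summed UMIs of the 8 members had a median of 45.7 per 10000 UMIs in hESC 1 (10th to 90th percentile 33.1 to 62.2) and 47.4 in hESC 2 (34.3 to 63.5). In the pluripotent-like cells of blastoid 3 and blastoid 4 the medians were 25.02 (6.21 to 51.5) and 29.4 (12.5 to 49.2), a wider spread reaching both the hESC range and the other classes. The medians were 7.21 and 6.11 in trophectoderm/amnion-like and 3.50 and 2.92 in mesoderm/mesenchyme-like cells. In the 2 largest hESC clusters the mean level of each member lay between 81.4% and 108% of its level over all hESC cells, and NANOG gave both ends of that range. NANOG was at 92.3 and 100.1 CPM in the largest hESC cluster and 72.7 and 71.9 CPM in the next. SOX2 was at 161 and 113 CPM in a cluster of shallow cells (median 1136 UMIs), against 312 and 289 CPM over all.

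The other genes of the pathway were taken by list, whose values stand beside the all-gene percentages given above. Of 16 tested network partners and targets of the triad, 11 were lower and 3 higher in all blastoid cells with edgeR (median log2 fold change -1.73). Of this list's 17 genes, 9 are also among the pluripotent class markers. FOXD3, a forkhead factor of primed pluripotency, went from 18.1 and 16.2 CPM on TMM-scaled library sizes to 0 and 0.281 CPM. ZIC2, a zinc finger factor of primed cells, fell by 6.08 on the log2 scale from 204 and 217 to 3.91 and 2.36 CPM on the same scale, and TDGF1, the NODAL co-receptor, by 3.81. In the pluripotent-like class 5 were lower and 5 higher of 16, with a median of -0.35. There OTX2, a homeobox factor of primed cells, had 0 UMIs in both blastoid sums and was at least 19.6-fold lower, computed at 3 UMIs over the group. ZIC2 fell by 5.86 on the log2 scale, while FGF4, a growth factor gene activated by POU5F1 with SOX2, was higher by 4.70. That rise of FGF4 rests on few counts, 7 and 9 UMIs in the hESC sums and 11 and 23 in the blastoid sums. On TMM-scaled library sizes these are 0.556 and 0.574 CPM against 12.5 and 16.8 CPM.

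Of the POU and SOX relatives, 2 were higher and 3 lower of 9 tested in all cells (median 0.10), and 2 and 2 of 8 in the pluripotent-like class (median -0.03, which became 0.06 with library-size scaling). POU3F1, a POU factor of primed cells and neural progenitors, fell by 5.69 on the log2 scale in all cells and by 2.89 in the class. POU3F2 had only 2 UMIs in the hESC samples, and its ratio of blastoid to hESC was 76.7 (counting interval 20.9 to 638). SOX15 was higher by 1.55 in the class, a call lost with DESeq2, with 15 principal components and without hESC 1, hESC 2 or blastoid 4.

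Shelterin and telomerase genes, the partners of TERF1, moved in either direction or were not called. Of 7 tested, TERF2IP (RAP1) was higher by 1.22 on the log2 scale in all cells, TERT, the catalytic subunit of telomerase, was lower by a log2 of -3.03 and DKC1, which stabilises its RNA, by -0.57 (edgeR adjusted p 8.94e-04, 3.54e-04 and 0.0171). The DKC1 call was lost with library-size scaling and without hESC 1 or hESC 2, and with that scaling the list's median moved from -0.08 to 0.04. In the pluripotent-like class 0 of 7 were called with edgeR or DESeq2, with a median of -0.21, and 1 of 7, TERF2, had an unadjusted edgeR p under 0.05 (0.0377).

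Of 7 genes of histone H2B ubiquitin and the mitotic checkpoint, listed beside USP44, 3 were lower and 1 higher in all cells (median -0.27). The calls of USP7 (-0.37) and RNF40 (0.47) among them were lost with DESeq2 and without hESC 1 or hESC 2. BUB1B and MAD2L1, components of the spindle checkpoint, fell by 1.10 and 0.66 on the log2 scale in all cells and by 0.65 and 0.68 in the pluripotent-like class, where they were the 2 called of 7 (median -0.24). The calls of both in the class, and that of MAD2L1 in all cells, were lost without hESC 1 or hESC 2. Of 6 repressor partners of PRDM14, 2 were higher in each comparison, EZH2, the Polycomb methyltransferase, by 1.18 and 1.02 and CBFA2T2, a co-repressor that binds PRDM14, by 0.89 and 1.28. EHMT1 was lower in all cells (-0.44), a call lost with library-size scaling, without shared barcodes and without hESC 1 or hESC 2, and the list's medians were 0.15 and -0.19.

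The genes whose pattern was most like that of POU5F1, SOX2 and NANOG were sought among 3111 genes over the 8 sums of a sample and class. Among those most like it, Pearson's r with the mean of the triad was 0.996 for AC009446.1, 0.995 for ESRG, 0.989 for RPS27L, 0.987 for MIR302CHG, 0.986 for LNCPRESS1, 0.985 for JARID2 and 0.983 for GGCT. ESRG is itself a pluripotent class marker, and MIR302CHG is the host gene of the miR-302 cluster. The value of r does not measure the size of a fall, which differed among these genes. RPS27L was at 560 and 512 CPM in the hESC sums and at 257 to 291 CPM in the trophectoderm/amnion-like and mesoderm/mesenchyme-like sums. GGCT was at 285 and 267 CPM against 139 to 160 CPM, and MIR302CHG at 687 and 706 CPM against 2.14 to 7.67 CPM. Among the other members r was 0.979 for PRDM14, 0.975 for DPPA4, 0.903 for USP44, 0.847 for TERF1 and 0.782 for L1TD1. The 8 sums come from 4 libraries and fall into groups with and without pluripotent-like cells, so these values are a description.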

How the data were processed

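The authors deposited 1 table of UMI counts per sample, with gene symbols in rows and cell barcodes in columns. The counts are whole numbers, not normalized. Cell Ranger and GRCh38 are named per the submitters' processing notes, and versions and filters are not given in the sources used here. Genes not listed in a table were set to 0 counts. The 8 members, the gene lists and the tests were chosen with earlier results of these data known, and of the listed genes those with the largest absolute change per list are named. ESRRB and SOX17 were too low to test.

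Cells with at least 500 genes and at most 20% mitochondrial UMIs were kept, and Scrublet (scanpy 1.11.5, expected doublet rate 6%) was run on each sample. The 2000 most variable genes without the members, scaled to 10000 UMIs and log-transformed, gave 30 principal components, 15 nearest neighbours and Leiden clusters at resolution 0.5 (leidenalg 0.10.2, igraph 0.11.9). A cluster took the class with the largest share of markers detected in at least 10% of its cells, at least 3 being needed. A cluster far shallower than its samples also needed a marker of that class among its 10 leading genes. The shallow hESC clusters, at 0.196 and 0.215 of the sample median depth, had 1 each. UMIs were summed per sample and compared by quasi-likelihood test in edgeR 4.0.16 under R 4.3.3 (TMM, filterByExpr, Benjamini-Hochberg, called under 0.05), which was tested on simulated data. The standard error is the log2 fold change divided by the square root of F. Likeness was computed on log2(CPM + 1) for genes with a mean of at least 50 CPM, and 1 of the 8 most like genes is not reported here. Shares have exact Clopper-Pearson and levels exact Poisson 95% intervals, for counting error only. Alternatives were DESeq2 1.42.0, scaling by library size only, no filter, other cluster settings, kept doublets, other thinning depths, leaving out shared barcodes and each sample in turn. Of them, leaving out the blastoid cells of hESC clusters and requiring at least 1000 genes per cell in the pluripotent-like class were chosen after seeing the data.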

Additional observations from a re-analysis of the deposited data

How the results depend on the processing

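In all kept cells the members' directions and calls were the same in all 88 combinations of member and alternative. The count of genes called there, 8157, ranged from 4896 to 10157 when 1 sample was left out, the lower values being 4896 without hESC 1 and 5114 without hESC 2, where the lone hESC sample is assumed to vary like the blastoid group. In pluripotent-like cells it was 3527, against 2142 with DESeq2 and 1430 to 3521 with 1 sample left out (1430 without hESC 1, 1702 without hESC 2). Library-size scaling moved the median of all genes from 0.05 to 0.18 in all cells and the share of higher calls from 54.3% to 63.1%, and from 53.6% to 61.5% in pluripotent-like cells. The share there was 48.8% without a filter on low counts.

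In pluripotent-like cells, resolution 1.0 gave POU5F1 -0.29, SOX2 -0.31, NANOG 0.69, PRDM14 1.10 and DPPA4 0.11, and NANOG and PRDM14 passed the threshold there. With 15 principal components the values were NANOG -0.50, PRDM14 -0.076, DPPA4 -0.89 and L1TD1 -1.04, the last 2 past the threshold. PRDM14 also passed the threshold with library size only (0.87), without a filter (0.74), without blastoid cells of hESC clusters (0.83) and with at least 1000 genes per cell (0.81). L1TD1 also passed it without a filter (-0.45), without shared barcodes (-0.59) and with called doublets kept (-0.44). Leaving out 1 sample gave POU5F1 -0.79 to -0.33, SOX2 -0.75 to -0.56, NANOG 0.054 to 0.53, PRDM14 0.53 to 0.94, DPPA4 -0.35 to -0.08 and L1TD1 -0.54 to -0.30. NANOG and PRDM14 passed the threshold without blastoid 3 (0.53 and 0.94), and L1TD1 without blastoid 4 (-0.54). The cause of these shifts was not tested.

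Detection differences depend on depth. Without thinning they were -78.65 percentage points for POU5F1, -61.1 for SOX2, -30.1 for NANOG, -4.10 for PRDM14, -32.7 for DPPA4, -38.9 for L1TD1, -34.6 for TERF1, -50.01 for USP44 and -64.5 for at least 3 members. At 1000 UMIs they were, in the same order, -64.4, -24.0, -6.92, -1.01, -28.9, -44.8, -57.8, -21.7 and -63.4. At 4000 UMIs they were -88.8 for POU5F1, -63.3 for SOX2, -24.9 for NANOG, -3.32 for PRDM14, -53.5 for DPPA4, -58.1 for TERF1, -55.8 for USP44 and -89.3 for at least 3 members. Without shared barcodes they were -43.8 for SOX2, -69.6 for TERF1 and -92.4 for at least 3 members. No paired analysis was possible because the groups share no replicate number (1 and 2 against 3 and 4). Depth limits PRDM14 most, with 15 and 29 UMIs in the blastoid samples.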
